A study of Mus musculus with 6 samples.

Results

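Immediate early genes are switched on within minutes of a stimulus, from transcription factors that are already present in the cell, and their mRNAs are usually short-lived. Most of them code for transcription factors (the Fos, Jun, Egr, Klf and Nr4a families), and others code for the phosphatases and RNA decay proteins that turn the response off again. In microglia, the macrophages that live in the brain and spinal cord, they are also known for rising while tissue is being dissociated into single cells, so their level in isolated cells can hold a part that was made during the isolation. The 35 genes described here are a list of such genes by name, 35 of the 55401 genes in the table.

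The data are RNA sequencing libraries of spinal cord microglia from untreated mice aged 7 months, isolated with beads coated for CD11b, a surface integrin of myeloid cells. One group was non-transgenic mice (NTg, C57BL/6). The other was double mutants (ATXN2-Q33;TDP-43), heterozygous, with a knock-in of human ATXN2-Q33 and with human TDP-43; the labels name no promoter or driver. Each library is a pool from 3 spinal cords, with 3 libraries and 9 animals per group, so the replicates are separate pools. They are called here NTg 7, 9 and 11 and mutant 8, 10 and 12, after the numbers in the sample titles.

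Library totals ran from 12553570 to 22854628 counts. Microglial markers were high in every library (P2ry12 729 ± 70.0 CPM in NTg libraries, 703 ± 118 CPM in mutant libraries, SD, n = 3 each; CPM is counts per 1000000, with library sizes scaled by TMM). Markers of other cells were present and uneven. Oligodendrocyte markers summed to 166 to 1624 CPM, highest in NTg 9 and mutant 10, neutrophil markers to 59.5 to 1743 CPM, highest in mutant 8, and endothelial markers to 109 to 379 CPM. All 6 T and NK cell markers were under 1 CPM. Between genotypes, fold changes were positive (higher in mutants) in 10 of 10 neutrophil markers (median log2 1.22), 7 of 7 monocyte markers (0.97), 4 of 4 tested ependymal markers (1.38), 6 of 8 oligodendrocyte markers (0.36) and 6 of 7 astrocyte markers (0.11). None of these markers was called by edgeR, with 0, 1, 3, 0 and 1 at an unadjusted p under 0.05 in that order, and their part in the values below was not tested. In bulk RNA, fewer cells of a type and less RNA per cell cannot be told apart. Tardbp (94.9 ± 1.56 and 98.2 ± 8.51 CPM) and Atxn2 (95.2 ± 1.07 and 101 ± 2.40 CPM) were counted as mouse genes. Whether reads of the human sequences fell on them was not tested, so these values do not check the labels.

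The promoters of these genes are shown first, since signals reach them there. RefSeq promoter windows (GRCm38.p6, the assembly of mm10) run from 250 bases before to 50 after a RefSeq start, and 30 of the 35 genes had one or more. Egr1, Egr3, Klf10, Myc and Ier2 had none in that table. The cAMP response element (CRE), TGACGTCA, is bound by CREB, which calcium and cAMP signals activate. The following stretches hold the full element, in capitals, in the 4 genes that have it.

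Dusp1 (chr17:26508578-26508645, minus strand): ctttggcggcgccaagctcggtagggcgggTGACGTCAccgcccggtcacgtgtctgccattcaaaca
Btg2 (chr1:134079284-134079351, minus strand): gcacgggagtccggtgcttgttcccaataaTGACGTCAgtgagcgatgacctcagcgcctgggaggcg
Ppp1r15a (chr7:45526243-45526310, minus strand): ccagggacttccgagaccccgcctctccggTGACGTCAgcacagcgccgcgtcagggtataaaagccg
Maff (chr15:79347461-79347528, plus strand): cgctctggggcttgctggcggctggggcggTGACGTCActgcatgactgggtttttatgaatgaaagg

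Distances are counted from the RefSeq start of the window searched, which for Dusp1, Dusp5, Maff, Zfp36 and Egr2 lies inside the GENCODE gene model that the counts use and for Btg2 just outside it. The element starts 143 bases before that start in Dusp1, 166 before in Btg2, 12 before in Ppp1r15a and 29 before in Maff. It lay in 4 of the 30 genes (13.3%), against 3.50% of the 10635 tested genes in the promoter table. Its core TGACG, on either strand and also counted inside the full element, was in 20 of the 30 (66.7%, against 34.8%). Fos is shown because it has 2 of these cores and a TATAAA box, marked in capitals.

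Fos (chr12:85473751-85473872, plus strand): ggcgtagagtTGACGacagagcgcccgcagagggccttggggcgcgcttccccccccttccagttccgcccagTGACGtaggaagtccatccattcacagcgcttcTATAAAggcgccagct

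These 3 matches start 129, 66 and 33 bases before the start in Fos. TATAAA was in 8 of the 30 genes (26.7%, against 8.78% of tested genes). The CArG box is the site of serum response factor, which acts on these genes below the MAP kinases. It was found in 3 of the 30 genes and in 1.51% of the tested genes, and those 3 are printed with the box in capitals. Fos had none within its window. A box more than 250 bases before the start, or in a gene without a window such as Egr1, would not be seen.

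Dusp5 (chr19:53529033-53529112, plus strand): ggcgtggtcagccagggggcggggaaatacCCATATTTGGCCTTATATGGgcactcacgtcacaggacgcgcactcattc
Zfp36 (chr7:28379247-28379316, minus strand): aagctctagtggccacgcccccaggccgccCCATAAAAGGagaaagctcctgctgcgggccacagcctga
Egr2 (chr10:67537464-67537533, plus strand): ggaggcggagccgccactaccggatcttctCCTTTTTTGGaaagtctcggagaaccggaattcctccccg

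Dusp5 has 2 boxes side by side, which start 82 and 72 bases before the start. The Zfp36 box starts 58 bases before and the Egr2 box 72 bases before. The EGR site GCGGGGGCG was in 7 of the 30 (23.3%, against 6.38%), its second form GCGTGGGCG in Maff alone (3.33%, against 1.40%), and the AP-1 site TGACTCA in Csrnp1 alone (3.33%, against 4.48%). Members had 1.47 windows each and tested genes 1.28, and all motifs were searched on both strands. A match describes letters in a window and shows no binding.

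The other end of these mRNAs carries decay signals. The motif TATTTAT (written as DNA) is the site that tristetraprolin, the product of Zfp36, is known to bind in mRNAs that it marks for decay. It occurred in the 3' UTR of 22 of the 35 genes (62.9%), against 30.2% of 12919 tested genes, although the median UTR was of like length (1189 and 1176 bases). Over all UTR bases there were 0.831 sites per kilobase in the 35 genes and 0.290 in the tested genes. The sites below, 30 bases each from GENCODE transcripts with the motif in capitals, include that of Zfp36 itself.

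Fos: tttattgtgttttcaattTATTTATtaaga
Ier3: gtctaattaaTATTTATgTATTTATgtata
Zfp36: cccaaccagtgggcccttTATTTATgacga
Dusp1: ctcatgggagctggtcctTATTTATttaac
Btg2: atttttaaaatgaagagcTATTTATacatg
Klf10: agatggacagtgtcttttTATTTATaggag
Nr4a2: tttaaattattttgtgccTATTTATgaata

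Ier3 had 4 sites in a UTR of 616 bases, Zfp36 had 3 in 777 and Dusp1 had 3 in 693. By contrast 13 of the 35 had no site, among them Egr1, Egr2, Egr3, Klf4 and Myc. The genes are also compact: their median span was 5260 bases, against 24971 for tested protein-coding genes, and 25 of 35 spanned under 10000 bases (71.4%, against 23.4%).

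Most of the 35 genes were among the most abundant mRNAs of these cells. All 35 passed the filter on low counts. Levels between genes are compared per length, as CPM per kilobase of exon, over 17272 protein-coding genes with counts. On that scale 18 of the 35 were in the top 1 percent, 31 in the top 5 percent and 34 in the top 10 percent. TPM, the length-scaled unit first chosen, gave the same 3 counts, but 70.7% to 74.8% of its sum in a library was 1 annotation of 57 bases, Gm23935, so TPM is not used here to set libraries beside each other. No sample that had not been dissociated is among the data used, so how much of each level arose during isolation was not tested.

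**Figure D1:**
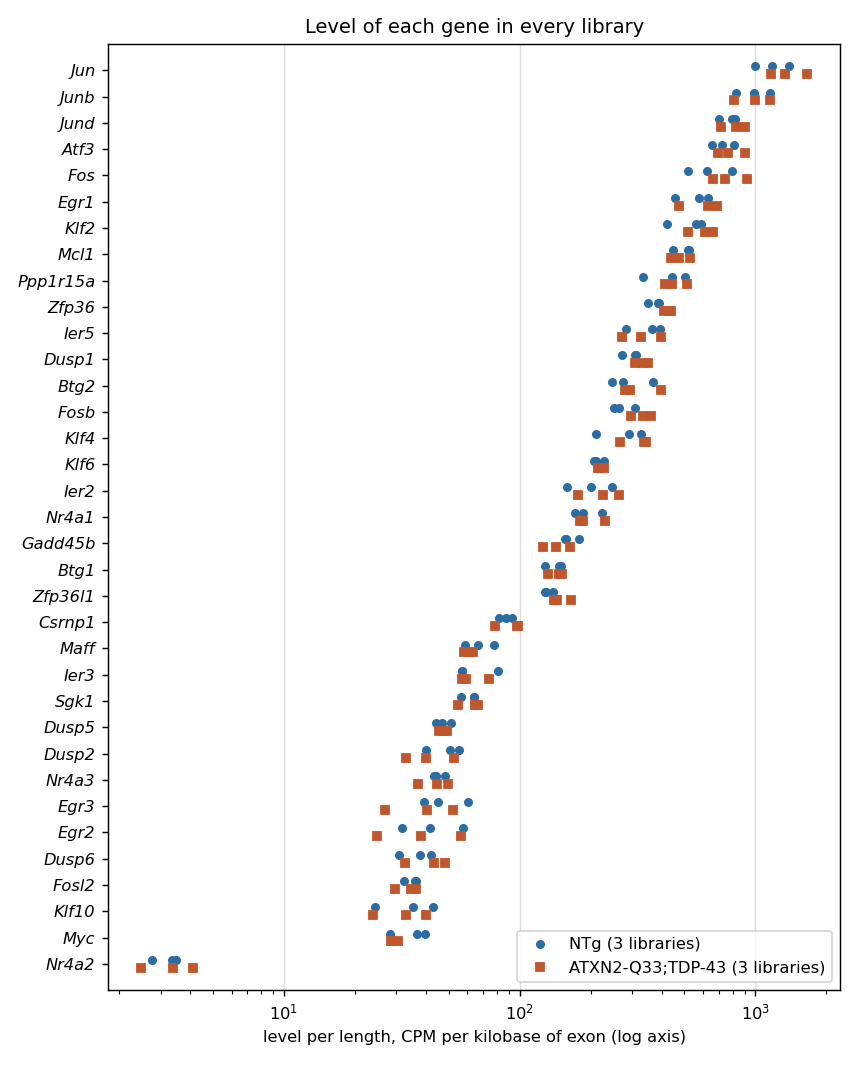
Level per length of the 35 genes (CPM per kilobase of exon, log axis) in each of the 6 libraries, with circles for the 3 NTg and squares for the 3 ATXN2-Q33;TDP-43 libraries, ordered by mean level. Jun is highest and Nr4a2 lowest, and the symbols of the 2 genotypes overlap in every gene but Zfp36 and Zfp36l1.

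The bZIP factors held the top 5 places. These proteins pair with each other through a leucine zipper to form AP-1 and related complexes. Jun, the partner of Fos in AP-1, measured 1186 ± 195 CPM per kilobase in NTg and 1382 ± 253 in mutants (SD, n = 3 each) and ranked 8 of all protein-coding genes. Junb, a Jun relative that can restrain it, ranked 15 (990 ± 165 and 988 ± 175). Jund, the most steadily expressed Jun protein, ranked 20 (772 ± 62.5 and 816 ± 96.4). Atf3, a stress-induced repressor of the ATF family, ranked 24 (728 ± 79.1 and 786 ± 105), and Fos ranked 27 (646 ± 142 and 776 ± 131). Within each library, Jun was above Junb and Junb above Jund. The order of Jund, Atf3 and Fos changed between libraries, so it is not set by these data. In NTg 11 Atf3 was highest of these and Jund lowest, and in mutant 12 Fos was highest and Atf3 lowest. The other 3 were lower: Fosb 303, Maff 64.3 and Fosl2 34.2 CPM per kilobase over the 6 libraries.

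Below them came Egr1, a zinc finger factor of growth signals (rank 36), Klf2, which restrains inflammation in myeloid cells (rank 40), Mcl1, a short-lived survival protein of the BCL2 family (rank 46), and Ppp1r15a, the phosphatase subunit GADD34 (rank 48). At the low end stood Myc, Klf10 and Fosl2 at 32.0, 33.2 and 34.2 CPM per kilobase. Nr4a2, an orphan nuclear receptor best known from dopamine neurons, was far lower at 3.26 CPM per kilobase and rank 7072. Its relatives Nr4a1 and Nr4a3 measured 196 and 44.6 CPM per kilobase.

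Together the 35 genes summed to 29520, 25307 and 31786 CPM in NTg 7, 9 and 11 and to 31172, 27378 and 34890 CPM in mutant 8, 10 and 12. They took 2.61% to 3.40% of all counts of a library. The lowest library of each genotype (NTg 9, mutant 10) and the highest (NTg 11, mutant 12) lay further apart than the genotype means of 28871 ± 3288 and 31147 ± 3756 CPM (SD, n = 3 each). A range of libraries and a difference of means are unlike measures, so this does not rank the one above the other.

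No member passed the test between the genotypes in the reported fit. With edgeR's quasi-likelihood test over 16248 genes, 0 of the 35 had an adjusted p under 0.05, and so had 0.0% of all genes tested. At an unadjusted p under 0.05 there were 0 members as well, against 2.28% of all genes. DESeq2 called 0 members and gave 2, Fosb and Zfp36, an unadjusted p under 0.05, against 2.45% of all genes tested. Another fit took libraries of neighbouring codes as a block (7 with 8, 9 with 10, 11 with 12), chosen after seeing the data and named by no label. Among the 71 genes that edgeR called in it were 3 members, all higher in mutants. They were Fos, Fosb and Jun (adjusted p = 0.0171, 0.0167 and 0.0379), and Fos and Jun changed direction with the combined alignments as a covariate. The fold changes were positive (higher in mutants) in 22 members and negative in 13, against 52.0% positive over all genes, with a median log2 fold change of 0.04 against 0.01. In 29 of the 35, the 95% interval lay within 1.5-fold in both directions, and in 34 within 2-fold. The exception was Egr2, at -0.13 (95% interval -1.07 to 0.80).

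Only Zfp36 and Zfp36l1 had all mutant libraries above all NTg libraries, 2 of 35, against 3.26% of all genes. No member had them all below, against 3.58% of all genes (6.84% in either direction).

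**Figure D2:**
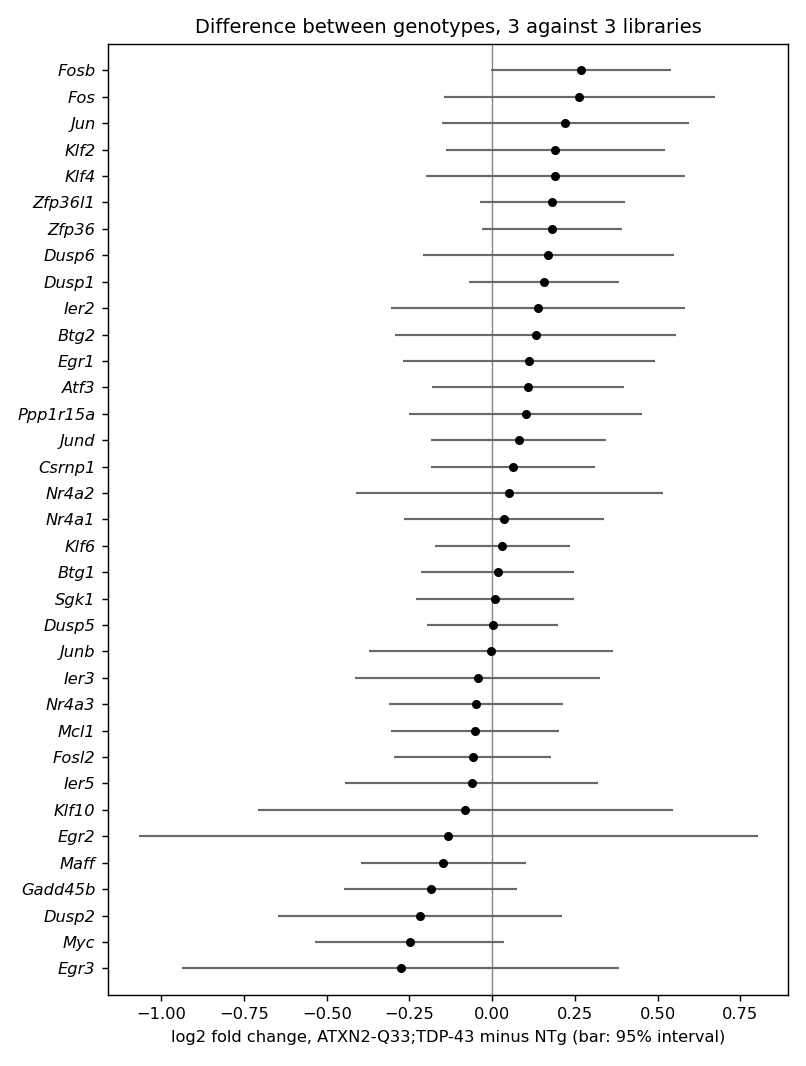
Log2 fold change of each of the 35 genes, ATXN2-Q33;TDP-43 minus NTg, 3 against 3 libraries; points are edgeR estimates and bars 95% intervals. Estimates run from -0.28 (Egr3) to 0.27 (Fosb), and all 35 bars cross 0.

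Among the bZIP factors, 5 fold changes were positive and 3 negative (median 0.09). Fosb, a Fos relative whose products can lack the activation domain, had the smallest p of the 35. Its levels were 1933, 1569 and 1640 CPM in NTg 7, 9 and 11 and 2255, 1857 and 2084 CPM in mutant 8, 10 and 12. NTg 7 lay above mutant 10, so the groups overlapped by that 1 pair. On the log2 scale the mutant libraries were higher by 0.27 (SE 0.12, 95% interval -0.0029 to 0.54, edgeR unadjusted p = 0.052, adjusted p = 0.9996).

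Jun read 3734, 3184 and 4428 CPM in the NTg libraries and 4242, 3695 and 5283 CPM in the mutant libraries. Mutant 12 was highest and NTg 9 lowest, with the others interleaved (log2 fold change 0.22, SE 0.17). Fos, given beyond the rule for named genes because its sequence is shown, read 1465, 1215 and 1878 CPM against 1752, 1560 and 2161 CPM. Its log2 fold change of 0.26 (SE 0.18) was close to that of Fosb, but its libraries spread more widely, 1.78-fold from lowest to highest against 1.44-fold. Junb read 1790, 1494 and 2090 CPM in the NTg libraries against 1805, 1461 and 2095 CPM in the mutant libraries, nearly the same 3 values in both genotypes (log2 fold change -0.0036, SE 0.16). Means of the other 4 were 338 ± 22.7 and 325 ± 34.1 CPM for Fosl2, 1288 ± 104 and 1361 ± 161 for Jund, 1569 ± 170 and 1692 ± 226 for Atf3, and 175 ± 24.7 and 158 ± 6.92 for Maff, a small Maf protein that lacks an activation domain.

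The zinc finger factors gave 4 positive and 3 negative fold changes (median 0.03). Egr1 read 2579, 2034 and 2822 CPM in the NTg libraries against 2828, 2131 and 3075 CPM in the mutant libraries, low in NTg 9 and mutant 10 and high elsewhere. Klf2 read 1031, 775 and 1085 CPM against 1133, 953 and 1214 CPM, with NTg 9 again lowest. Neither gene's libraries separated by genotype (log2 fold changes 0.11, SE 0.17, and 0.19, SE 0.15).

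Egr3, which acts with Egr2 in restraint of lymphocyte activation, had the most negative fold change of the 35. It read 198, 173 and 265 CPM in the NTg libraries against 178, 118 and 229 CPM in the mutant libraries. The highest value was NTg 11 and the lowest mutant 10, and the groups overlapped (log2 fold change -0.28, SE 0.27, 95% interval -0.94 to 0.38, edgeR unadjusted p = 0.347). Egr2, a close relative of Egr3, was the most variable member: 141, 108 and 196 CPM in the NTg libraries against 129, 84.1 and 192 CPM in the mutant libraries, a 2.33-fold range. Klf4, a factor of monocyte maturation, averaged 844 ± 183 and 964 ± 129 CPM, and Klf6, an injury-response factor, 945 ± 52.2 and 965 ± 27.8 CPM. Klf6 was the steadiest member, with a 1.11-fold range over the 6 libraries.

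Klf10, a TGF-beta-inducible factor, ran against most of the others, as did Myc. It read 148, 179 and 102 CPM in the NTg libraries against 138, 167 and 99.6 CPM in the mutant libraries, highest in NTg 9 and mutant 10, where most other members were lowest. Its genotype difference was small beside that spread (log2 fold change -0.08, SE 0.26).

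Of the 3 orphan nuclear receptors, which act without a known natural ligand, Nr4a1 read 604, 653 and 782 CPM in the NTg libraries against 631, 650 and 809 CPM in the mutant libraries. Nr4a3 read 265, 260 and 289 CPM against 222, 298 and 267 CPM. Nr4a1 was highest in NTg 11 and mutant 12, while Nr4a3 was highest in NTg 11 and mutant 10. Nr4a2 read 11.2, 13.7 and 14.1 CPM in the NTg libraries against 13.8, 16.7 and 10.1 CPM in the mutant libraries. It was high in NTg 11 but lowest of all in mutant 12. Log2 fold changes were 0.04 (SE 0.13) for Nr4a1, -0.05 (SE 0.12) for Nr4a3 and 0.05 (SE 0.21) for Nr4a2.

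Myc, a driver of cell growth, read 99.4, 108 and 76.4 CPM in the NTg libraries against 77.9, 82.9 and 77.6 CPM in the mutant libraries. NTg 7 and 9 stood above all mutant libraries and NTg 11 below them, so the groups overlapped (log2 fold change -0.25, SE 0.13, 95% interval -0.53 to 0.03, edgeR unadjusted p = 0.078). Csrnp1, a nuclear protein first described as induced by axin, read 323, 285 and 303 CPM in the NTg libraries against 342, 272 and 337 CPM in the mutant libraries. Its lowest and highest values were both mutant libraries (log2 fold change 0.06, SE 0.11).

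The dual specificity phosphatases switch MAP kinases off. Dusp1, which acts on p38 and JNK, read 1019, 899 and 1033 CPM in the NTg libraries against 1104, 1026 and 1159 CPM in the mutant libraries. Mutant 10, the lowest mutant library, fell just under NTg 11, the highest NTg library (log2 fold change 0.16, SE 0.10). Dusp5, an ERK phosphatase of the nucleus, read 127, 109 and 116 CPM against 122, 118 and 113 CPM, and its 2 group means were 117 and 117 CPM (log2 fold change 0.00, SE 0.09, 95% interval -0.20 to 0.20). Dusp2 averaged 97.4 ± 15.5 and 83.7 ± 19.8 CPM and Dusp6, the ERK phosphatase of the cytoplasm, 116 ± 17.8 and 130 ± 25.3 CPM. A further 12 phosphatases of this family, taken as a related list, gave 2 positive and 10 negative fold changes (median -0.13) and 0 calls. The smallest p-values there were those of Dusp19, at 0.222 to 2.45 CPM in the 6 libraries (log2 fold change -1.29, SE 0.59), and Dusp16, a JNK phosphatase (-0.26, SE 0.13).

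The RNA decay and antiproliferative genes were the one role whose fold changes were all positive, 4 of 4 (median 0.16), in the reported fit. Btg2 turned to -0.18 with the combined alignments as a covariate and to -0.044 without mutant 12, and Btg1 to -0.023 without mutant 8 and to -0.046 without NTg 11. Zfp36 read 1217, 1342 and 1352 CPM in the NTg libraries against 1495, 1422 and 1516 CPM in the mutant libraries. The lowest mutant library lay above the highest NTg library (log2 fold change 0.18, SE 0.09, 95% interval -0.03 to 0.39, edgeR unadjusted p = 0.087, adjusted p = 0.9996). Zfp36l1, its relative, read 382, 387 and 416 CPM against 420, 429 and 495 CPM, separated by the small step from NTg 11 to mutant 8 (log2 fold change 0.18, SE 0.10, 95% interval -0.04 to 0.40, edgeR unadjusted p = 0.093). For both genes the exact two-sided permutation p was 0.1, the smallest that 3 against 3 libraries can give. With TPM, 2 other genes separated in their place, Fosb and Dusp6, and with TPM over protein-coding genes 4 did: Fosb, Dusp1, Zfp36 and Zfp36l1. With upper-quartile scaling 3 did: Dusp1, Zfp36 and Zfp36l1. The share of all genes that separate was not counted on these other scales, so these counts have no background.

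Btg2, an antiproliferative partner of the deadenylase that shortens mRNA tails, read 751, 677 and 1007 CPM in the NTg libraries against 806, 768 and 1095 CPM in the mutant libraries. NTg 11 and mutant 12 stood well above the other 4 libraries (log2 fold change 0.13, SE 0.18). Its relative Btg1 averaged 748 ± 61.0 and 757 ± 53.4 CPM.

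The IER proteins gave 1 positive and 2 negative fold changes. Ier5, a regulator of the heat shock factor, read 1197, 924 and 1288 CPM in the NTg libraries against 1071, 889 and 1305 CPM in the mutant libraries. Ier2, a small nuclear protein, read 306, 242 and 375 CPM against 345, 269 and 401 CPM. Both were lowest in NTg 9 and mutant 10 and highest in NTg 11 and mutant 12 (log2 fold changes -0.06, SE 0.17, and 0.14, SE 0.19). Ier3, a survival gene of stressed cells, averaged 73.7 ± 15.6 and 71.5 ± 10.4 CPM.

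Of the stress and survival genes, Mcl1 read 1793, 1530 and 1772 CPM in the NTg libraries against 1621, 1498 and 1796 CPM in the mutant libraries. Ppp1r15a, which restores translation after stress by reversing the phosphorylation of eIF2alpha, read 1294, 978 and 1470 CPM against 1302, 1209 and 1502 CPM. The libraries of the genotypes overlapped in both genes, in Ppp1r15a with NTg 9 below all others (log2 fold changes -0.05, SE 0.11, and 0.10, SE 0.16). Gadd45b, which activates the p38 and JNK pathways, read 285, 247 and 251 CPM in the NTg libraries against 227, 199 and 261 CPM in the mutant libraries. Mutant 8 and 10 lay below all NTg libraries and mutant 12 above 2 of them (log2 fold change -0.19, SE 0.12, edgeR unadjusted p = 0.142). Sgk1, a kinase induced by glucocorticoids and serum, averaged 302 ± 22.6 and 303 ± 31.1 CPM.

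Libraries of one genotype also differed, and most members moved together between them. Each gene's deviation is its log2(CPM + 0.5) minus its mean over the 6 libraries. Averaged over the 35 genes this was 0.01, -0.16 and 0.10 in NTg 7, 9 and 11 and 0.02, -0.12 and 0.15 in mutant 8, 10 and 12. In NTg 9 only 6 members were above their own mean, and in mutant 10 only 8, while 24 were above it in NTg 11 and 28 in mutant 12. Both NTg 7 and mutant 8 had 21. Of the tested genes at least as abundant as the lowest member, 58.3%, 42.5% and 58.8% were above their own mean in NTg 7, 9 and 11. In mutant 8, 10 and 12 it was 50.7%, 38.1% and 57.9%.

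**Figure D3:**
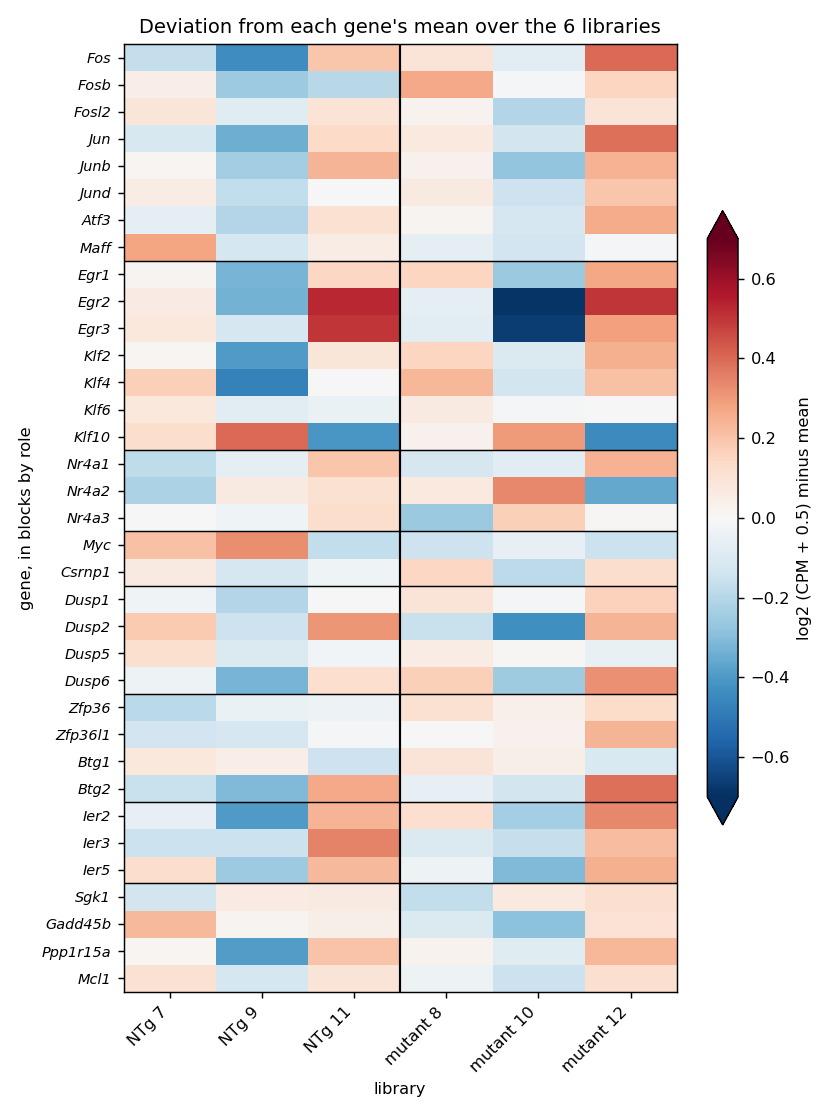
Deviation of each gene from its own mean over the 6 libraries, in log2(CPM + 0.5), red above and blue below; rows are the 35 genes in blocks by role, and the vertical line parts NTg from ATXN2-Q33;TDP-43. The columns of NTg 9 and mutant 10 are mostly blue and those of NTg 11 and mutant 12 mostly red, with Klf10 the other way round in all 4.

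NTg 9 was the lowest NTg library for 27 of the 35 genes, against 36.1% of all tested genes and 45.2% of the tested genes at least as abundant as the lowest member. That set holds 7432 genes and starts at the 13.3 CPM of Nr4a2. As 31 of the 35 were above 100 CPM, it is not matched to the members in level. Mutant 10 was the lowest mutant library for 26, against 35.3% and 48.0%. NTg 11 was the highest of its genotype for 23 members and mutant 12 for 25. In 29 members (82.9%) NTg 11 exceeded NTg 9 and mutant 12 exceeded mutant 10. Among tested genes the share was 35.3%, and 49.2% among those at least as abundant as the lowest member. The full order 9, 7, 11 in NTg and 10, 8, 12 in mutants occurred in 17 members (48.6%), against 9.40% and 16.6%. The 17 were Fos, Fosl2, Jun, Junb, Atf3, Egr1, Egr2, Egr3, Klf2, Dusp1, Dusp2, Dusp6, Btg2, Ier2, Ier3, Ier5 and Ppp1r15a.

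The size of this pattern depends on the scaling. With RLE size factors 28 members were higher in both NTg 11 and mutant 12, and with upper-quartile scaling 25. With TPM there were 13, with TPM without Gm23935 18, and with TPM over protein-coding genes 20. The share of tested genes at least as abundant as the lowest member fell along with it. It was 6.28%, 19.5% and 25.5% on those 3 TPM scales, where the members' shares were 37.1%, 51.4% and 57.1%. On each of the 7 scalings the members' share was above that of this set, which reaches below the levels of most members. How much of the gap belongs to level was not tested. As genes that respond together, the 35 are not independent of one another, and 3 libraries per genotype carry no test of this order.

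**Figure D4:**
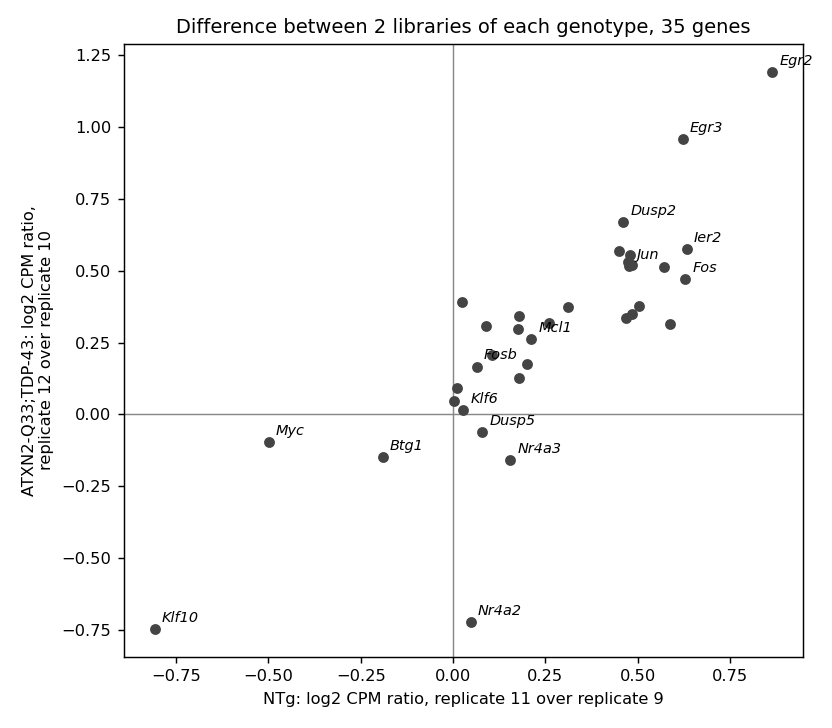
Log2 ratio of 2 libraries of each genotype for the 35 genes: NTg 11 over NTg 9 on the horizontal axis and mutant 12 over mutant 10 on the vertical axis, one point per gene, some of them named. Most points lie in the upper right corner, with Egr2 farthest out, Klf10 farthest out on the opposite side, and Nr4a2 below the line at 0 on the vertical axis only.

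The largest step of each genotype was that of Egr2, at a log2 ratio of 0.86 in NTg and 1.19 in mutants. Egr3 gave 0.62 and 0.96. Fos gave 0.63 and 0.47, Ier2 0.63 and 0.57, and Jun 0.48 and 0.52. Btg1, Klf10 and Myc ran the other way in both genotypes, Klf10 at -0.81 and -0.75, Myc at -0.50 and -0.10, and Btg1 at -0.19 and -0.15. Klf6 and Sgk1 hardly moved, with both ratios between 0.00 and 0.05. Nr4a2 gave 0.05 in NTg and -0.72 in mutants.

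Cell type markers also differed between these libraries. All 11 microglia markers were higher in NTg 11 than NTg 9 and in mutant 12 than mutant 10, while 8 of 8 oligodendrocyte and 8 of 8 endothelial markers were lower in both. The mean deviation of the microglia markers was -0.01, -0.14 and 0.22 in NTg 7, 9 and 11 and -0.02, -0.31 and 0.26 in mutant 8, 10 and 12. Subtracting it from that of the 35 genes left 0.03, -0.01 and -0.13 in NTg and 0.03, 0.19 and -0.11 in mutants, so relative to microglia markers the 35 genes were highest, not lowest, in mutant 10. Oligodendrocyte markers summed to 182, 1624 and 441 CPM in NTg 7, 9 and 11 and to 350, 1109 and 166 CPM in mutant 8, 10 and 12. The part of these cells in the co-movement was not tested.

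**Figure D5:**
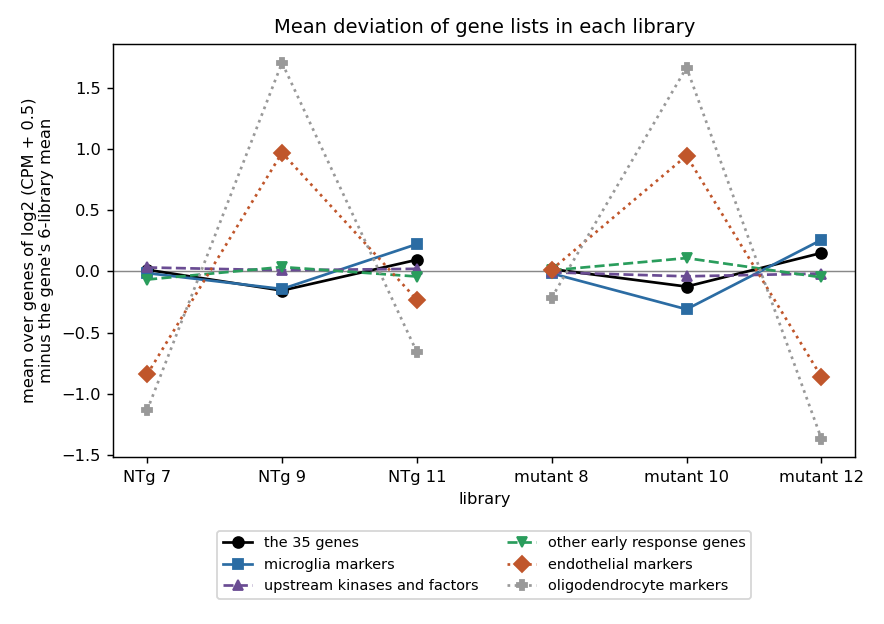
Mean deviation in log2(CPM + 0.5) of 6 gene lists in each library: the 35 genes, microglia markers, upstream kinases and factors, other early response genes, endothelial markers and oligodendrocyte markers. The 35 genes follow the microglia markers, low in NTg 9 and mutant 10 and high in NTg 11 and mutant 12, while the oligodendrocyte and endothelial markers peak in NTg 9 and mutant 10.

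By number of genes, other genes of the pathway were more evenly divided. Of 28 kinases and factors that act upstream of the 35 genes (MAP kinases, SRF and its partners, CREB and MEF2), 12 were higher and 11 lower in both NTg 11 and mutant 12. Of 36 tested other early response genes, 17 were higher and 15 lower, and of 20 tested other bZIP factors, 9 and 8. Over all tested genes, 35.3% were higher and 36.8% lower. Summed CPM, which the most abundant genes dominate, did follow the library order of the 35 genes in part. The other early response genes summed lowest in NTg 9 and mutant 10 (12997 and 12694 CPM) and highest in NTg 11 and mutant 12 (14148 and 14766 CPM). The other bZIP factors also summed lowest in NTg 9 and mutant 10 (3897 and 3686 CPM). Between genotypes, the upstream list had 8 positive and 20 negative fold changes (median -0.06) and 0 calls. Its smallest p belonged to Mapkapk2, the kinase that p38 uses to stabilise mRNA (log2 fold change -0.14, SE 0.09). Of 20 tested other bZIP factors, 4 were positive and 16 negative (median -0.02), with Nfe2l2, the oxidative stress factor NRF2, at -0.15 (SE 0.10) and Bach1, a heme-regulated repressor, at -0.15 (SE 0.10).

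The other early response genes had 18 positive and 18 negative fold changes (median 0.00). Of the 36 tested, 2 had an edgeR unadjusted p under 0.05, against 2.28% of all genes tested. Id2, an inhibitor of helix-loop-helix factors, read 294, 294 and 241 CPM in the NTg libraries against 222, 234 and 207 CPM in the mutant libraries. Nfil3, a bZIP repressor tied to circadian and lymphoid control, read 22.7, 26.8 and 24.3 CPM against 28.8, 41.9 and 30.3 CPM. In both genes the genotypes' libraries did not overlap (log2 fold changes -0.33, SE 0.11, and 0.45, SE 0.16, edgeR adjusted p = 0.9996 for each). Over all genes tested, 6.84% did not overlap in either direction. The 2 genes were picked as those with the smallest p of the list, and overlap was not counted over its other genes. With neighbouring codes as a block, Id2 was called (log2 fold change -0.32, edgeR adjusted p = 0.0183) and Nfil3 was not (0.44, adjusted p = 0.0850). Npas4, a neuronal activity gene, and Batf2, of the bZIP list, were too low to be tested.

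The spread within genotypes was set beside that of genes of like level. For each gene the pooled SD of log2(CPM + 0.5) within genotypes was ranked among up to 250 tested genes next above it in mean level and the 250 next below. The most abundant members, Klf6 and Zfp36 among them, had fewer genes above them than that. Their comparison genes therefore lay more below than above them in level. In 28 of 35 members it was above the median of those genes. The median SD was 0.19 over the members and 0.14 over the tested genes at least as abundant as the lowest member, and the median ratio of highest to lowest library was 1.43 against 1.30. The median biological coefficient of variation from edgeR was 0.132 against 0.130. These 3 medians are set against a group not matched to the members in level, and no test was made of the differences. Among genes of like level, by SD, Egr2, Egr3 and Klf10 stood at the 99.2, 98.2 and 97.6 percentile, and Klf6 and Zfp36 at the 10.1 and 12.7 percentile. By the coefficient of variation, Egr2, Egr3 and Klf10 had the same percentiles, and Klf6 and Zfp36 stood at 10.4 and 14.4. The low spread of Zfp36 and the high spread of Egr2 set what difference each gene could show with 3 libraries per genotype.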

How the data were processed

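Raw fragment counts per gene were used as deposited. Per the file headers, the authors counted with featureCounts 1.6.1, paired fragments once, strand setting 2, on GENCODE exons of mm10. Trimming was by Trim Galore 0.4.1 and alignment by TopHat2, and the authors used DESeq2, per the submitters' processing notes. The column names of NTg 7 and 9 call their alignments combined. A second deposited column, which the authors' counter wrote, gives exon length in bases and holds no other measurement. Columns of 6 other samples were not used. No same-strand exon of any other gene overlapped one of the 35 (0 of 35).

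Symbols were matched by identifier for 55141 of 55401 genes. Genes were filtered with filterByExpr (minimum count 10), leaving 16248. The test was edgeR 4.0.16 under R 4.3.3 (TMM, robust quasi-likelihood, no covariates, Benjamini-Hochberg at 0.05). DESeq2 1.42.0 and limma 3.58.1 were alternatives. No library pair agreed within sampling noise: the lowest chi-square per degree of freedom was 6.56, for NTg 11 with mutant 12. NTg 7 with mutant 8 gave 9.46, and NTg 9 with mutant 10 gave 11.7. By this measure each library was closest to the neighbouring code of the other genotype. The edgeR step was tested on simulated counts. Members and lists were chosen with earlier results of these data known. Values in every library are given for the 2 genes of each role with the highest length-scaled level, the 5 with the smallest p and the 2 with the extreme fold changes. Fos, Egr2, Klf10 and Nr4a2 were added after their values were seen. So was the scale of CPM per kilobase, used for levels in place of TPM because Gm23935 fills most of the TPM sum. Some marker results are not reported here.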

Additional observations from a re-analysis of the deposited data

How the results depend on the processing

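The genotypes share no replicate number and no label names pairs of libraries. A block of neighbouring sample codes (7 with 8, 9 with 10, 11 with 12), chosen after seeing the data and named by no label, called 71 genes, 51 higher and 20 lower, where the fit without it called 0. Under that block 3 members were called, Fos, Fosb and Jun (log2 fold changes 0.27, 0.27 and 0.22, edgeR adjusted p = 0.0171, 0.0167 and 0.0379), as was the related gene Id2 (-0.32, adjusted p = 0.0183). In it 18 members had an edgeR unadjusted p under 0.05, 13 higher and 5 lower. So had 8.63% of all genes tested, against 2.28% in the fit without the block. DESeq2 called 7 genes and the fit without a filter 6. Leaving out 1 library gave 0 to 2 genes called, 2 of them without mutant 12, and 0 members called.

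Members at an unadjusted p under 0.05 numbered 0 in the reported fit, 1 with upper-quartile scaling, with voom and with a filter at 1 CPM, 2 with DESeq2 and without a filter, and 0 to 2 without 1 library. The shares of all genes tested were 2.28%, then 2.27%, 1.78% and 2.30%, then 2.45% and 2.81%, and 0.93% to 4.71% without 1 library. Members with a positive fold change numbered 22, 13 with the combined alignments as a covariate, and 19 to 25 without 1 library. Their median log2 fold change of 0.04 ran from 0.00 to 0.13 without 1 library.

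Of 525 values of the 35 members under 15 other fits, 474 kept direction and side of the threshold, 48 changed direction and 3, those of the block, passed it; 12 members kept their direction in all of them. The covariate for combined alignments, which marks NTg libraries alone, turned 13: Fos -0.042, Jun -0.0068, Atf3 -0.047, Egr1 -0.076, Klf10 0.40, Nr4a1 -0.17, Nr4a2 -0.067, Myc 0.057, Dusp6 -0.0197, Btg2 -0.18, Ier2 -0.15, Sgk1 -0.054 and Ppp1r15a -0.14. Voom gave Nr4a2 -0.02, and no filter gave Dusp5 -0.0036; the cause was not tested. Without 1 library, the log2 fold change ran from -0.12 to 0.024 in Fosl2, -0.13 to 0.13 in Junb, -0.0019 to 0.17 in Jund, -0.014 to 0.25 in Egr1, -0.47 to 0.13 in Egr2 and -0.27 to 0.11 in Klf10. It ran from -0.085 to 0.15 in Nr4a1, -0.13 to 0.23 in Nr4a2, -0.15 to 0.061 in Nr4a3, -0.047 to 0.0596 in Dusp5, -0.046 to 0.073 in Btg1 and -0.044 to 0.32 in Btg2. It ran from -0.0089 to 0.31 in Ier2, -0.17 to 0.15 in Ier3, -0.21 to 0.065 in Ier5, -0.054 to 0.093 in Sgk1, -0.049 to 0.24 in Ppp1r15a and -0.12 to 0.0084 in Mcl1.

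TPM was planned as the unit of level, and its use to set libraries beside each other was added after the data were seen. On TPM scales, members higher in both NTg 11 and mutant 12 fell from 29 to 13 (18 without Gm23935). Those in the full library order fell from 17 to 2 (7 without Gm23935). Members without overlap, 2 on the reported scale, numbered 1 with TPM without Gm23935, 4 over protein-coding genes and 3 with upper-quartile scaling. The share of all genes was not counted on those scales. Gm23935 is short and took a different share of each library's TPM sum. With library sizes without mitochondrial genes and Gm23935, each library's summed CPM of the 35 genes rose, to 28836 in NTg 9 and 39783 in mutant 12. With 3 libraries per genotype the interval of Egr2, the most variable member, was wide. Its log2 fold change was -0.13 (95% interval -1.07 to 0.80), so the interval reached past 1.5-fold in both directions. The smallest fold change that could be detected in such members is not given here.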
